A study of Homo sapiens with 3 samples.

Results

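The genes described here are 36 factors of ribosome biogenesis that work in or pass through the nucleolus, out of 33423 gene names found in any of the count tables. They were taken by name, from box C/D and H/ACA snoRNP proteins to nucleolar chaperones, RNA polymerase I partners and assembly factors of both ribosomal subunits, and all 36 had UMIs in every library. Their levels and ratios are given beside those of MYC, which had a higher level in enzalutamide-treated than in untreated VCaP cells. VCaP and LNCaP are human prostate cancer cell lines that the labels call sensitive to enzalutamide (ENZ), a drug used in prostate cancer. VCaP parental cells were kept for 48 h in 0.1% DMSO, the vehicle of the drug, VCaP–ENZ48 cells for 48 h in 10 µM ENZ, and LNCaP–ENZ168 cells for 168 h in 10 µM ENZ. Every group was a single Drop-seq library of a cultured line, in which droplets pair cells with barcoded beads and each captured mRNA molecule carries a unique molecular identifier (UMI). No difference therefore has a replicate check, no test was made, and every interval below is a 95% interval of counting error alone.

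After filtering, 944 to 997 cells per library were used, with 6313283 to 19515202 UMIs in all, and these cells shared 0 barcodes between libraries. The deposited barcodes shared 1, which the cell filter removed in every library. The depth per cell was unequal, with a median of 17817 UMIs in VCaP parental, 11224 in VCaP–ENZ48 and 5389 in LNCaP–ENZ168, so levels are given after scaling every library to one total (CPM). ERG, overexpressed in VCaP through its TMPRSS2 fusion, had 2052 UMIs in VCaP parental, 816 in VCaP–ENZ48 and 0 in LNCaP–ENZ168, where 3 counts, the limit set for a count of 0, would be 0.475 CPM. The epithelial markers KRT8, KRT18 and EPCAM all had over 1000 UMIs in every library. Those of leukocytes, endothelium and fibroblasts, PTPRC, PECAM1 and COL1A1, had at most 12 UMIs in any library.

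Ribosomes are built in the nucleolus, where RNA polymerase I transcribes a long precursor of ribosomal RNA. Small nucleolar RNAs guide its chemical modification, with box C/D particles adding methyl groups and box H/ACA particles converting uridine to pseudouridine, while successive sets of assembly factors, helicases and GTPases cut and fold the precursor into the small and the large subunit. Many genes of this machinery are textbook targets of MYC, a transcription factor that promotes growth and is often overexpressed in prostate cancer, and enlarged nucleoli are a classical feature of prostate cancer cells.

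Together the 36 factors took a smaller share of the transcriptome in the treated VCaP cells than in the untreated ones. Their UMIs summed to 6899 CPM (0.690% of all UMIs) in VCaP parental, 5078 CPM (0.508%) in VCaP–ENZ48 and 5870 CPM (0.587%) in LNCaP–ENZ168. MYC took the opposite order in VCaP, with 339.6 CPM (331.5 to 347.9) in VCaP parental, 480.3 CPM (469.0 to 491.8) in VCaP–ENZ48 and 140.0 CPM (130.9 to 149.6) in LNCaP–ENZ168. In CPM the VCaP–ENZ48 library was thus the highest in MYC and the lowest in summed nucleolar factors, although its order against LNCaP–ENZ168 in the factors turned with the scaling, the log2 ratio of LNCaP–ENZ168 to VCaP–ENZ48 being 0.21 in CPM, -0.32 under TMM, -0.34 under median-of-ratios scaling and -0.046 without mitochondrial and ribosomal protein genes. Per cell, at unequal depth, the factors averaged 135 UMIs in VCaP parental, 76.7 in VCaP–ENZ48 and 39.3 in LNCaP–ENZ168, while MYC averaged 6.65, 7.25 and 0.936 UMIs.

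Levels spanned more than 2 orders of magnitude. Each UMI stands for a captured 3′ end of a transcript, so CPM values were compared between genes without division by length. NCL, which encodes the abundant nucleolar RNA-binding protein nucleolin, ranked first everywhere and supplied 19.9% of the factors' UMIs in VCaP parental, 18.1% in VCaP–ENZ48 and 22.9% in LNCaP–ENZ168. PPAN, a large subunit assembly factor, ranked last in both VCaP libraries at 3.28 and 4.96 CPM, and NOP2, an rRNA methyltransferase, ranked last in LNCaP–ENZ168 at 8.55 CPM. Above 100 CPM stood 15 of the factors in VCaP parental, 12 in VCaP–ENZ48 and 14 in LNCaP–ENZ168.

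**Figure D1:**
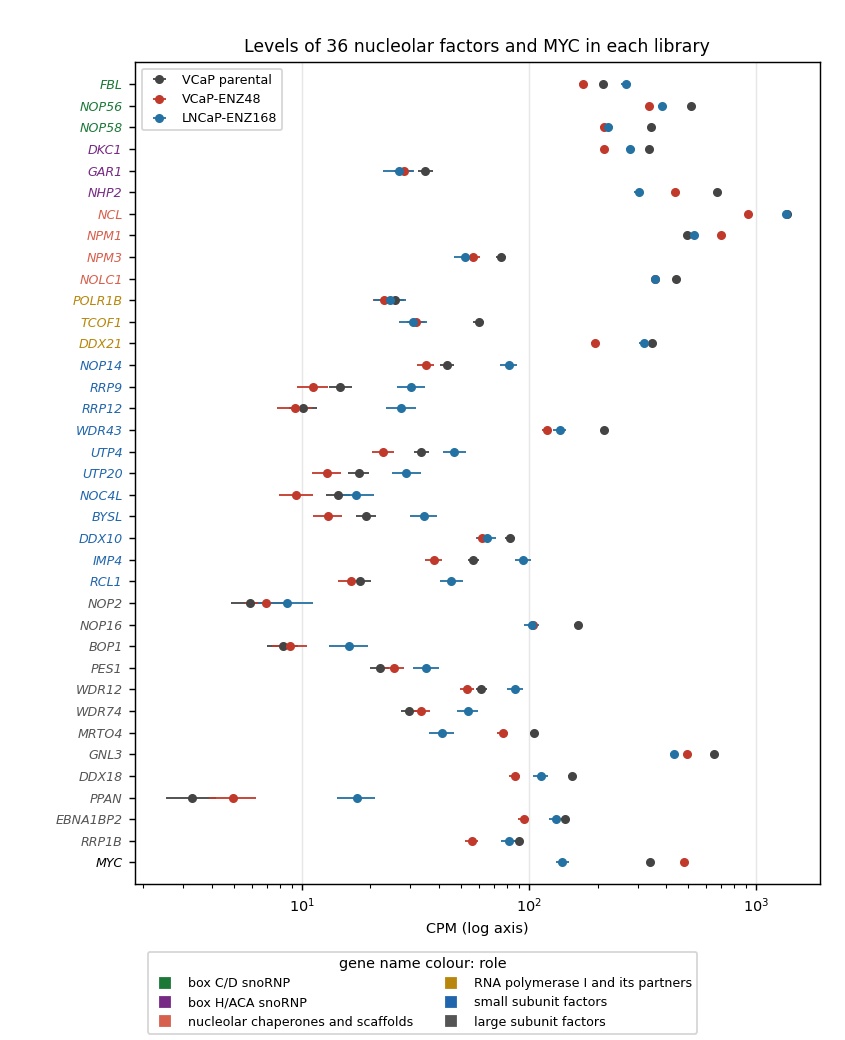
Levels in CPM (log axis) of the 36 nucleolar factors, grouped by role through the colour of the gene name, and of MYC at the bottom, with 1 point per library and lines for exact Poisson 95% intervals. NCL lay highest at 1370, 917.4 and 1345 CPM in VCaP parental, VCaP–ENZ48 and LNCaP–ENZ168. Most VCaP–ENZ48 points lay left of the VCaP parental ones, while those of NPM1, PES1, WDR74, NOP2, BOP1, PPAN and MYC lay to their right.

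The first comparison, between both VCaP libraries, asked how each factor differed after the short exposure in which MYC was higher. Ratios are log2 ratios of CPM + 1, treated over untreated, and their intervals are exact conditional intervals of the ratio of counts. Genes averaging 10 CPM or more over both libraries were compared and are called tested genes, in a comparison of values without a statistical test. Since the median ratio of these 7729 genes was -0.066, ratios were also taken minus this median, and a gene was called at 1.5-fold above or below it. Of the 36 factors, 32 reached the minimum, and RRP12, NOP2, BOP1 and PPAN did not. NOC4L reached it through VCaP parental alone and was not called. The median of the 32 ratios was -0.49, or -0.42 relative to all genes. Without NOC4L the median relative to all genes was -0.39. Below the all-gene median lay 29 factors, NOC4L included, and above it lay NPM1, PES1 and WDR74. Past 1.5-fold below it lay 8 of 32 factors, where 15% of all tested genes did, and past 1.5-fold above it lay 0 of 32, where 17.5% of all genes did. The 8 were TCOF1, DDX21, WDR43, DDX18, NOP58, RRP1B, NOP16 and DKC1, of which NOP16 at -0.59 and DKC1 at -0.586 were only just past the limit. MYC had a log2 ratio of 0.50 (0.45 to 0.55), or 0.57 relative to all genes, just under the 1.5-fold limit. Before the median was taken off, 6 of all 36 factors lay above 0, against 2 under TMM or median-of-ratios scaling, which moved the all-gene median by -0.29 and -0.44 and gave MYC ratios of 0.21 and 0.051. Among the 138 and 127 VCaP cells whose barcode ended in a base rather than N, 2 factors lay past 1.5-fold below and 1 above. The share of all genes past these limits was not taken for those cells. The lower depth per cell of VCaP–ENZ48 moved with the drug, and its part in these ratios was not tested.

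**Figure D2:**
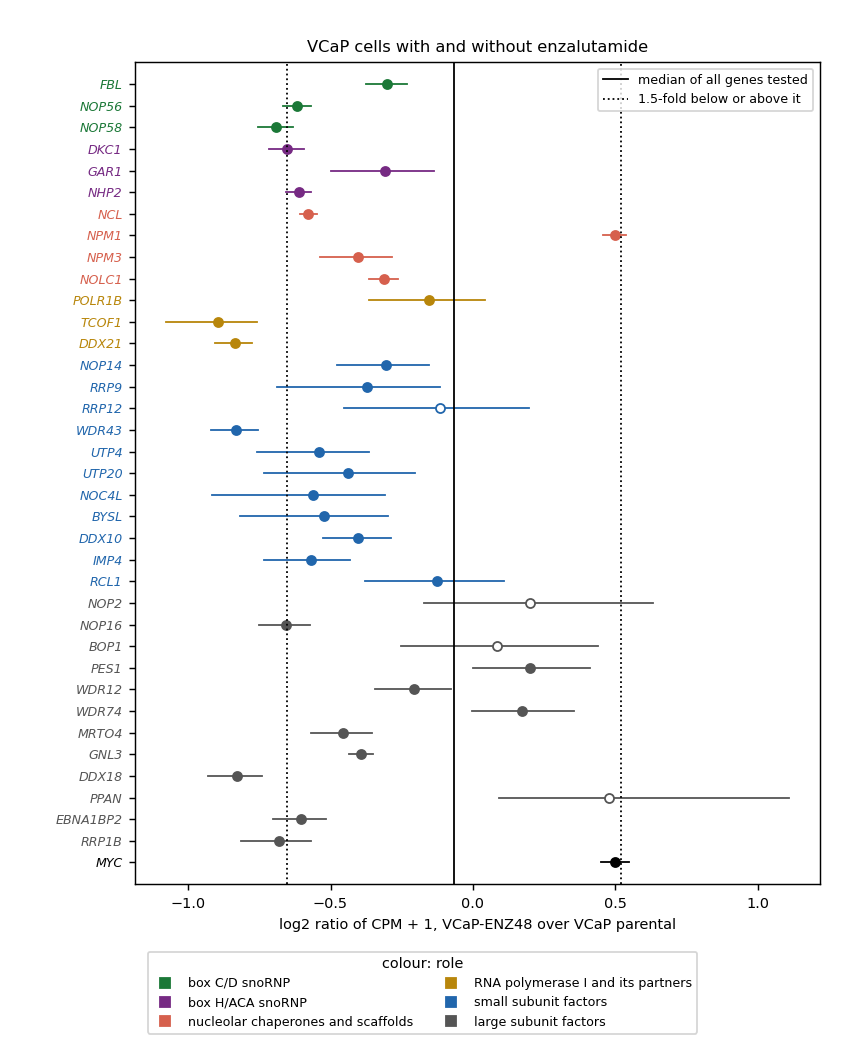
Treated over untreated VCaP cells, as log2 ratios of CPM + 1, for the 36 nucleolar factors and MYC, coloured by role, with lines for exact conditional 95% intervals. The solid line marks the median of all tested genes (-0.066), dotted lines mark 1.5-fold below and above it, and open points are the 4 factors under the 10 CPM minimum. Of the 32 filled factors 29 lie left of the solid line, and NPM1 at 0.50 lies beside MYC at 0.50.

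All 6 snoRNP core proteins had lower CPM in the treated VCaP cells, but relative to all genes GAR1 turned from -0.24 to 0.42 among barcodes ending in a base, and FBL from -0.24 to 0.063 among the least cycling cells described below. Of the box C/D proteins, the methyltransferase fibrillarin (FBL, chromosome 19, 39834458 to 39846379, GRCh38) was at 212 CPM in VCaP parental, 172 in VCaP–ENZ48 and 266 in LNCaP–ENZ168. Its partner NOP56 (chromosome 20, 2652593 to 2658393) was at 518 CPM in VCaP parental, 337.5 in VCaP–ENZ48 and 384 in LNCaP–ENZ168, and NOP58 was at 345, 213 and 223 CPM in the same order. The catalytic subunit thus differed less between the VCaP libraries than its scaffold partners, with a log2 ratio of -0.30 (-0.38 to -0.23) against -0.62 (-0.67 to -0.57) for NOP56 and -0.69 (-0.75 to -0.63) for NOP58. Of the H/ACA proteins, the pseudouridine synthase dyskerin (DKC1, chromosome X, 154762742 to 154777689) was at 337 CPM in VCaP parental, 214 in VCaP–ENZ48 and 279 in LNCaP–ENZ168. NHP2, an RNA-binding subunit, was at 669, 437.7 and 304 CPM. GAR1, a less abundant core protein of the same particle, was at 34.9, 28.0 and 26.6 CPM. The log2 ratios between the VCaP libraries were -0.65 (-0.72 to -0.59) for DKC1, -0.61 (-0.66 to -0.57) for NHP2 and -0.31 (-0.499 to -0.14) for GAR1.

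The 4 chaperones and scaffolds split. NCL (chromosome 2, 231453531 to 231483641) had 1370 CPM (1354 to 1387) in VCaP parental, 917.4 CPM (901.8 to 933) in VCaP–ENZ48 and 1345 CPM (1317 to 1374) in LNCaP–ENZ168. Nucleophosmin (NPM1, chromosome 5, 171387116 to 171411810), a histone and ribosome chaperone of the granular part of the nucleolus, had 496.5 CPM (486.7 to 506.5) in VCaP parental, 701.7 CPM (688.0 to 715.6) in VCaP–ENZ48 and 529.8 CPM (512.0 to 548.1) in LNCaP–ENZ168. In CPM the treated VCaP library was lowest for NCL and highest for NPM1, with no overlap of the intervals in either case, although under TMM and median-of-ratios scaling the log2 ratio of NCL in LNCaP–ENZ168 to that in VCaP–ENZ48 was 0.021 and 0.0021 in place of 0.55. The log2 ratio between the VCaP libraries was -0.58 (-0.61 to -0.55) for NCL and 0.50 (0.46 to 0.54) for NPM1, the latter nearly the value of MYC. Under TMM and median-of-ratios scaling the ratio of NPM1 was only 0.21 and 0.050, and that of NCL was -0.87 and -1.03. NPM1 had the highest ratio of the 32 tested factors, with PES1 and WDR74 next at 0.20 and 0.17. Its relative NPM3 had 75, 56.4 and 52.3 CPM in VCaP parental, VCaP–ENZ48 and LNCaP–ENZ168, and NOLC1, a phosphoprotein that binds snoRNPs, had 444, 357.3 and 357.7 CPM. Both were lower in the treated VCaP cells, at -0.40 (-0.54 to -0.28) and -0.31 (-0.36 to -0.26) on the log2 scale.

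TCOF1 and DDX21, partners of RNA polymerase I, differed more between the VCaP libraries than the polymerase subunit POLR1B. TCOF1 (chromosome 5, 150357629 to 150400308) encodes treacle, a scaffold for rDNA transcription that is mutated in Treacher Collins syndrome, and had 60.0 CPM in VCaP parental, 31.7 in VCaP–ENZ48 and 30.9 in LNCaP–ENZ168. DDX21 (chromosome 10, 68956135 to 68985068), an RNA helicase that coordinates rDNA transcription with rRNA processing, had 347 CPM in VCaP parental, 194 in VCaP–ENZ48 and 319 in LNCaP–ENZ168. POLR1B, the second largest subunit of the polymerase, had 25.7, 23.0 and 24.4 CPM, with intervals that overlapped. The log2 ratio between the VCaP libraries was -0.896 (-1.08 to -0.76) for TCOF1, the lowest of all 36, -0.84 (-0.90 to -0.78) for DDX21 and -0.15 (-0.37 to 0.042) for POLR1B, whose interval held 0.

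All 10 tested small subunit factors lay below the all-gene median, with a median of -0.41 relative to it. Without NOC4L, which passed only through VCaP parental, the median of the other 9 was -0.37. WDR43 (chromosome 2, 28894667 to 28948219), which joins the UTP-A complex on the nascent precursor, had 214 CPM in VCaP parental, 119.5 in VCaP–ENZ48 and 136 in LNCaP–ENZ168. It was the only one called, at a log2 ratio of -0.83 (-0.92 to -0.76). The other tested small subunit factors were less abundant, from the helicase DDX10 at 82.6 CPM in VCaP parental and 62.2 in VCaP–ENZ48 down to the UTP protein NOC4L at 14.4 and 9.44 CPM. The ratio was -0.40 (-0.53 to -0.29) for DDX10 and -0.57 (-0.73 to -0.43) for IMP4, a U3 snoRNP protein. RCL1, a cyclase-like factor of precursor cleavage, lay nearest to 0 among those tested, with 18.0 CPM in VCaP parental and 16.4 in VCaP–ENZ48 and a ratio of -0.13 (-0.38 to 0.11).

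Of the 9 tested large subunit factors 7 lay below the all-gene median and 2 above. GNL3 (chromosome 3, 52681156 to 52694497), the nucleolar GTPase nucleostemin, was the most abundant, at 651 CPM in VCaP parental, 495.6 in VCaP–ENZ48 and 434 in LNCaP–ENZ168. The helicase DDX18 (chromosome 2, 117814691 to 117832377) had 154, 86.6 and 112 CPM in the same order. Both were highest in VCaP parental, and the log2 ratio between the VCaP libraries was -0.39 (-0.44 to -0.35) for GNL3 and -0.83 (-0.93 to -0.74) for DDX18. RRP1B had a ratio of -0.68 (-0.81 to -0.57), NOP16 of -0.66 (-0.75 to -0.57), EBNA1BP2 of -0.60 (-0.70 to -0.51) and MRTO4 of -0.46 (-0.57 to -0.35), all being proteins of large subunit precursors. PES1, BOP1 and WDR12 form one complex, PeBoW, needed for large subunit maturation. WDR12 had 61.5 CPM in VCaP parental and 53.1 in VCaP–ENZ48, PES1 had 22 and 25.4 CPM, and BOP1, under the minimum, had 8.25 and 8.81 CPM. The log2 ratios of these partners were -0.21 (-0.34 to -0.078), 0.20 (0.0018 to 0.41) and 0.085 (-0.25 to 0.44), so that none of the complex was lower to the extent of DDX18. WDR74, an assembly factor of large subunit precursors, had 29.5 and 33.4 CPM and a ratio of 0.17 (-0.0017 to 0.35).

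Other genes of the pathway, from lists that left out the 36, also lay mostly below the all-gene median between the VCaP libraries. The medians relative to all genes were -0.23 for 16 tested genes of RNA polymerase I and its factors, -0.14 for 34 of the small subunit, -0.28 for 41 of the large subunit, -0.42 for 9 of snoRNP assembly and -0.51 for 13 of the RNA exosome, the nuclease complex that trims rRNA precursors. The number past 1.5-fold below was 3, 3, 6, 3 and 5 in this order, and the number past 1.5-fold above was 1, 0, 2, 0 and 0, where 15% and 17.5% of all tested genes lay, so that the shares below for the small and large subunit lists were at or under the background. The lowest log2 ratios were those of the exosome subunit EXOSC9 at -1.29 (-1.55 to -1.14) and its cofactor MPHOSPH6 at -1.25 (-1.44 to -1.12). PAK1IP1 and BRIX1 of the large subunit were at -1.15 and -1.02, LTV1 and UTP11 of the small subunit at -0.94 and -0.88, and the snoRNP assembly factors NAF1 and RPAP3 at -0.93 and -0.77. POLR2K, a subunit that all 3 nuclear RNA polymerases share, and CD3EAP, specific to polymerase I, were at -0.88 and -0.82. The highest were NOP53 at 0.85 and DDX31 at 0.68 of the large subunit and POLR1D at 0.58, a subunit of polymerases I and III, followed by WDR46 (0.30), POLR1E (0.27), C1D (0.23), NOB1 (0.20), MTREX (0.0092), ZNHIT6 (-0.064) and ZNHIT3 (-0.15). The cytosolic ribosomal proteins, the building blocks that these factors assemble, lay on the other side, with a median of 0.44 relative to all genes over 82 tested and 27 past 1.5-fold above against 1 below, where 17.5% and 15% of all tested genes lay. This list was added after other results had been seen. The sum of their UMIs was 204494 CPM in VCaP parental and 248162 CPM in VCaP–ENZ48, so that NPM1 differed in the direction of the ribosomal proteins and most of the other 35 factors in the opposite one.

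Factors inside and outside lists of MYC targets had nearly equal medians. The hallmark MYC target lists, as used in the study, held 10 of the 36 factors in V1, 20 in V2 and 23 in either. The 20 tested factors in a list had a median of -0.42 relative to all genes and 5 past 1.5-fold below it. The 12 in neither list had a median of -0.41 and 3 past it, where 15% of all tested genes lay.

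Upstream sequence was searched for CACGTG, the palindromic E-box that MYC binds with its partner MAX, which reads the same on both strands. RefSeq promoter sequences (GRCh38.p14) matched 29 of the 36 factors by symbol, and NOP58, NOLC1, TCOF1, RRP12, BOP1, DDX18 and RRP1B had no entry. In the 250 bases before the gene start, CACGTG occurred in 4 of 29 factors (13.8%), in 6.49% of all 27305 promoters and in 9.59% of the 5993 promoters of tested genes. TATAAA, searched for comparison on both strands and not overlapping CACGTG, occurred in 1 of 29 factors (3.45%), UTP20, against 11.1% of all promoters and 5.11% of those of tested genes. The windows that hold the E-box are shown on the gene's strand, 5′ to 3′, with the motif in capitals.
EBNA1BP2: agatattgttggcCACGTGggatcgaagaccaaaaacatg
IMP4: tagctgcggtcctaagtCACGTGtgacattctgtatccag
UTP20: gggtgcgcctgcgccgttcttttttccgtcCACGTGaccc
UTP4: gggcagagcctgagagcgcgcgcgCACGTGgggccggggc
These lie at chr1:43172781-43172820 (minus strand), chr2:130342677-130342716, chr12:101280065-101280104 and chr16:69132609-69132648 (plus strand). The motif starts 237, 203, 10 and 16 bases before the gene start used in the RefSeq table, in the same order. For EBNA1BP2 and UTP4 that start lies inside the longer Gencode span of the gene. The log2 ratios of these 4 genes between the VCaP libraries, -0.60, -0.57, -0.44 and -0.54, were all within 1.5-fold of the all-gene median, and none of the 4 called factors with an entry held the motif. A match in these windows is a description of the letters and not a measured binding site.

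The share of cycling cells differed between the VCaP libraries and moved with the drug. S and G2M phase genes took 1.51% of UMIs in VCaP parental, 0.286% in VCaP–ENZ48 and 0.635% in LNCaP–ENZ168. Cells were therefore put into 4 classes by this share, cut at the quartiles of VCaP parental cells (0.381%, 1.15% and 2.22% of a cell's UMIs), from class 1, the least cycling, to class 4. Of the VCaP parental cells about equal numbers, 248 to 250, fell in each class, against 860, 62, 19 and 6 of VCaP–ENZ48 and 591, 225, 77 and 51 of LNCaP–ENZ168. These classes are ranges of a continuous share and not cell types.

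Within VCaP parental, MYC and the nucleolar factors did not follow the classes in the same way. MYC was at 466 CPM (446 to 486.7) in class 1, 411 in class 2, 292 in class 3 and 208 CPM (196 to 221) in class 4, lower in each more cycling class. The summed factors were at 6788 CPM (6711 to 6865) in class 1, 7469 in class 2, 6833 in class 3 and 6505 CPM (6436 to 6575) in class 4. MYC thus differed by a log2 ratio of -1.16 (-1.27 to -1.06) between class 4 and class 1, whereas the median ratio of 33 factors was -0.026 and that of all 7349 genes -0.028. Single factors differed in both directions. TCOF1 was higher in class 4, at 71.5 against 39.7 CPM (0.83, 0.59 to 1.12), as was FBL at 218 against 166 CPM (0.39, 0.25 to 0.52). GNL3 was lower, at 507 against 747 CPM (-0.56, -0.63 to -0.48), as were NPM1 (-0.34, -0.42 to -0.26), IMP4 (-0.61, -0.87 to -0.36), RRP9 (-0.98, -1.59 to -0.53) and RCL1 (-0.98, -1.55 to -0.56).

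**Figure D3:**
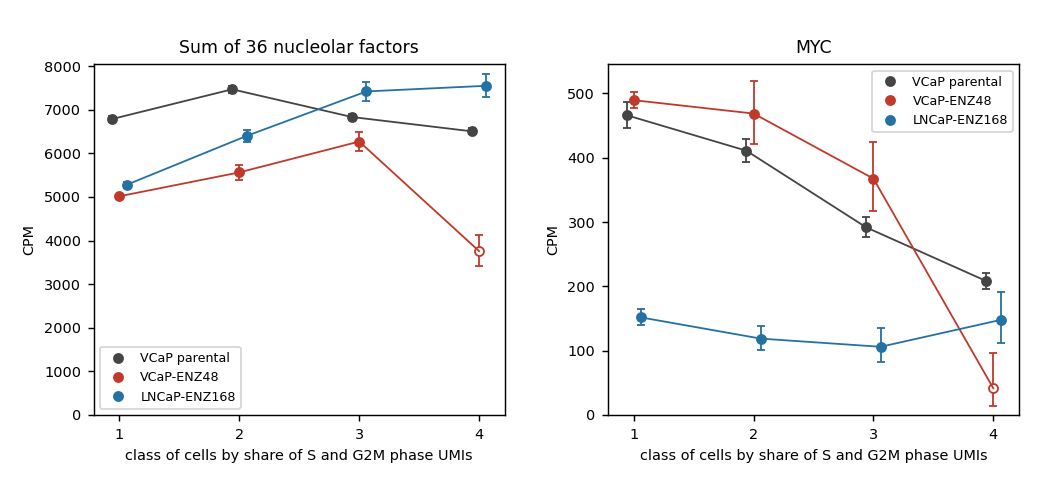
Summed level of the 36 nucleolar factors (left) and level of MYC (right) in CPM by class of cells, from class 1 (lowest share of S and G2M phase gene UMIs) to class 4 (highest), for each library, with exact Poisson 95% intervals and an open point for the class of 6 cells. In class 1 the MYC levels of VCaP parental (466 CPM) and VCaP–ENZ48 (489 CPM) lie side by side, while the summed factors lie at 6788 and 5016 CPM.

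Among class 1 cells alone, the lower level of the nucleolar factors in VCaP–ENZ48 was as large as over all cells, and the difference in MYC was not. MYC was at 466 CPM in the 250 class 1 cells of VCaP parental and at 489 CPM in the 860 of VCaP–ENZ48, a log2 ratio of 0.070 (-0.0015 to 0.14) against 0.50 over all cells. The summed factors were at 6788 and 5016 CPM, a log2 ratio of -0.44, against -0.44 over all cells. The share of cycling gene UMIs can still differ between the libraries within class 1. The median of the 33 factors that reached the minimum here was -0.49, or -0.41 relative to all genes, and 29 lay below the all-gene median. Past 1.5-fold below it lay 8 of 33, where 9.09% of 7645 genes did, and past 1.5-fold above it lay 0, where 15.4% did. RRP12, one of the 8, and NOC4L reached the minimum only through VCaP parental, and without them 7 of 31 lay past 1.5-fold below. Of the 8, 4 were also called over all cells, namely DDX21, WDR43, NOP16 and DDX18. TCOF1 was at 39.7 and 30.3 CPM in class 1, a ratio of -0.38 (-0.65 to -0.12) in place of -0.896. BYSL (-0.77, -1.18 to -0.44), RRP9 (-0.76, -1.21 to -0.41) and IMP4 (-0.81, -1.04 to -0.62) were called in class 1 and not over all cells. FBL, at 166 and 165 CPM, had a ratio of -0.015 (-0.14 to 0.11), and NPM1, at 563 and 713 CPM, one of 0.34 (0.28 to 0.40). NCL, at 1285 and 903 CPM, stayed lower in the treated cells at -0.51 (-0.55 to -0.46).

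The other classes of VCaP–ENZ48 held few cells and did not all follow class 1. Over all 36 factors the median log2 ratio of VCaP–ENZ48 over VCaP parental, with the all-gene median not taken off, was -0.46 in class 1, -0.44 in class 2, -0.13 in class 3 and -0.97 in class 4, with 4, 6, 12 and 6 factors above 0. NCL had ratios of -0.51, -0.63, -0.095 and -0.88 and MYC of 0.070, 0.19, 0.33 and -2.30 in the same order, of which class 3 rests on 19 treated cells and class 4 on 6. Within VCaP–ENZ48 the summed factors were at 5016, 5563, 6271 and 3757 CPM from class 1 to class 4 and MYC at 489, 469, 367 and 41.5 CPM. Over classes 1 to 3 the factors were higher in each more cycling class. MYC was lower in value in each, but its class 2 interval (421 to 520) overlapped those of class 1 (477 to 502) and class 3 (316 to 424).

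In LNCaP–ENZ168 the factors were higher in the more cycling classes and MYC showed no such order. The summed factors were at 5279 CPM (5208 to 5351) in class 1, 6399 in class 2, 7420 in class 3 and 7549 CPM (7282 to 7824) in class 4. MYC was at 152 CPM (140 to 164), 119, 106 and 148 CPM (112.5 to 191). Between class 4 and class 1 the median log2 ratio of 35 factors was 0.49, against 0.023 for all genes, and 30 of the 35 lay above that. TCOF1 differed most, at 120 against 11.8 CPM (3.24, 2.73 to 3.96). NOP56 was at 606 against 323 CPM (0.91, 0.71 to 1.11) and NCL at 1901 against 1177 CPM (0.69, 0.58 to 0.80), whereas NPM1, at 508 CPM in both, had a ratio of 0.0018 (-0.21 to 0.21).

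Cell by cell, the whole distribution was lower in VCaP–ENZ48. With every cell reduced at random to 2000 UMIs, for which 0 VCaP parental cells were too shallow, 30 of VCaP–ENZ48 and 1 of LNCaP–ENZ168, the median cell held 14 UMIs of the factors in VCaP parental (quartiles 10 and 17), 9 in VCaP–ENZ48 (7 and 12) and 11 in LNCaP–ENZ168 (8 and 14). The upper quartile of the treated VCaP cells thus lay below the median of the untreated ones. Without thinning the median share of a cell's UMIs was 0.687%, 0.484% and 0.557% in the same order.

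**Figure D4:**
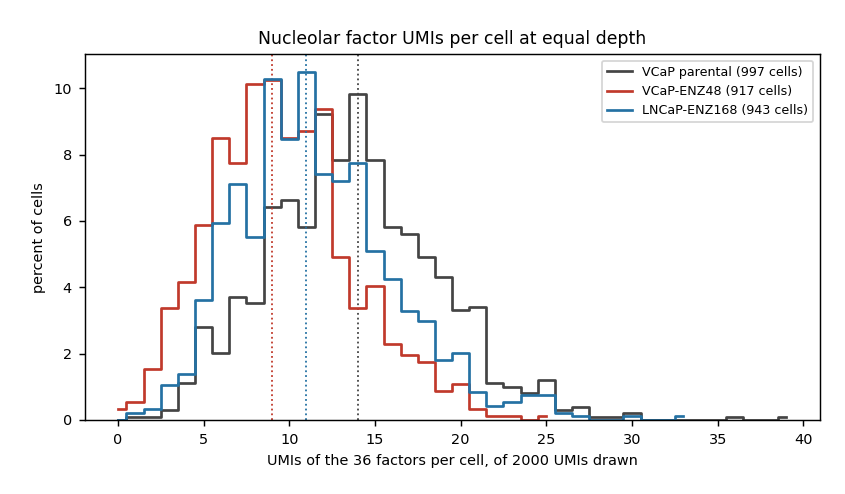
Percent of cells (vertical axis) by the number of UMIs of the 36 nucleolar factors among 2000 UMIs drawn from each cell (horizontal axis), for the 997, 917 and 943 cells of each library with enough UMIs, with dotted lines at the medians. The medians are 14 in VCaP parental, 9 in VCaP–ENZ48 and 11 in LNCaP–ENZ168.

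At 2000 UMIs per cell, cells with a MYC UMI held a larger share of the nucleolar factors than those without in every library. The intervals lay apart in VCaP–ENZ48 and LNCaP–ENZ168 only, but they leave out the spread between cells. Of the thinned cells, 48.2% had at least 1 MYC UMI in VCaP parental, 54.7% in VCaP–ENZ48 and 22.1% in LNCaP–ENZ168. No cell type that lacks MYC was in these libraries, so the share that free RNA would give was not measured. In VCaP–ENZ48 the factors made up 0.454% (0.439 to 0.468%) of UMIs in 415 cells with 0 MYC UMIs and 0.4999% (0.486 to 0.514%) in 502 cells with at least 1. In VCaP parental the shares were 0.672% (0.657 to 0.688%) in 516 cells and 0.701% (0.685 to 0.718%) in 481, with intervals that overlapped. In LNCaP–ENZ168 they were 0.571% (0.559 to 0.584%) in 735 cells and 0.611% (0.587 to 0.635%) in 208, without overlap. The treated VCaP cells with a MYC UMI still had a lower share than the untreated VCaP cells without one. At 5000 UMIs per cell the shares in VCaP–ENZ48 were 0.412% and 0.505%, in VCaP parental 0.661% (0.648 to 0.674%) and 0.703% (0.694 to 0.712%), without overlap, and in LNCaP–ENZ168 0.588% (0.575 to 0.601%) and 0.602% (0.589 to 0.616%), with overlap. This depth left 997, 757 and 535 cells of VCaP parental, VCaP–ENZ48 and LNCaP–ENZ168. In VCaP parental the intervals overlapped with another random seed (0.678% and 0.691%) and for cells with at least 2 MYC UMIs (0.679%, 0.652 to 0.707%). In LNCaP–ENZ168 they stayed apart with that seed, at 0.565% (0.553 to 0.577%) and 0.631% (0.606 to 0.656%). For its 32 cells with at least 2 MYC UMIs they overlapped (0.598%, 0.540 to 0.661%). The variance of the factors' UMIs over the cells thinned to 2000 UMIs was 1.78 times the mean in VCaP parental. It was 1.77 times in VCaP–ENZ48 and 1.83 times in LNCaP–ENZ168. The intervals of these shares are therefore too narrow, and whether they overlap decides little. Cells of a library are not replicates, and these shares describe the libraries.

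LNCaP–ENZ168 was set against VCaP–ENZ48 as the other line under the drug. Line and time differ together here and cannot be told apart, and this comparison shares the VCaP–ENZ48 library with the one above. The median log2 ratio of 8854 tested genes was 0.65, which moved by -0.55 under TMM scaling and by -0.57 under median-of-ratios scaling. It was 0.40 with totals taken without mitochondrial and ribosomal protein genes. Cytosolic ribosomal proteins summed to 102787 CPM in LNCaP–ENZ168 and 248162 CPM in VCaP–ENZ48, a share that enters the total behind every CPM ratio here. Of the 82 tested, 76 lay past 1.5-fold below the all-gene median and 2 above, where 28.1% and 26.8% of all tested genes lay. Of the 36 factors 35 were tested, without NOP2, and their median was 0.47, or -0.19 relative to all genes. Past 1.5-fold above the all-gene median lay 6 of 35, where 26.8% of all genes did, and past 1.5-fold below it lay 11, where 28.1% did. RRP12, NOC4L, BOP1 and PPAN reached the minimum only through LNCaP–ENZ168, where they were higher, and without them 4 of 31 lay past 1.5-fold above and 11 below. Those 31 had a median of -0.27 relative to all genes. MYC was at 140.0 CPM in LNCaP–ENZ168 and 480.3 in VCaP–ENZ48, a log2 ratio of -1.77 (-1.88 to -1.68).

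Median ratios of the factors differed by role in this comparison. The 11 small subunit factors had a median of 0.54 relative to all genes, with 5 past 1.5-fold above and 1 below. Of all tested genes 26.8% lay past 1.5-fold above and 28.1% below. Without RRP12 and NOC4L the median of the other 9 small subunit factors was also 0.54, with 4 above and 1 below. Highest of the 9 was RCL1, at 45.5 CPM in LNCaP–ENZ168 and 16.4 in VCaP–ENZ48 (log2 ratio 1.41, 1.21 to 1.72), followed by RRP9, a U3 snoRNP protein, at 30.3 and 11.2 CPM (1.36, 1.12 to 1.75) and BYSL, an assembly factor of the small subunit, at 34.4 and 13.0 CPM (1.34, 1.11 to 1.69). IMP4 was at 94.1 and 38.0 CPM (1.29, 1.14 to 1.48), whereas the helicase DDX10 was at 65.1 and 62.2 CPM (0.064, -0.11 to 0.24) and so lay past 1.5-fold below the all-gene median. The separate list of other small subunit genes had a median of only 0.11 relative to all genes over 37 tested. In that list 7 lay past 1.5-fold above and 7 below, so it did not share a shift of this size. At pseudocount 10 only 1 of the 35 tested factors of all roles lay past 1.5-fold above, in place of 6.

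The snoRNP proteins and chaperones lay below the all-gene median. Relative to all genes the medians were -0.73 for H/ACA proteins, -0.71 for chaperones and scaffolds, -0.57 for the RNA polymerase I partners and -0.47 for box C/D proteins, with no gene of these groups past 1.5-fold above. NHP2 was at 304 CPM in LNCaP–ENZ168 and 437.7 in VCaP–ENZ48 (log2 ratio -0.52, -0.60 to -0.45), and NPM1 was at 529.8 and 701.7 CPM (-0.40, -0.46 to -0.35). The other calls below in these groups, GAR1, NPM3, NOLC1, TCOF1 and NOP58, had ratios between -0.11 and 0.064 and were thus near equal in CPM. The 11 tested large subunit factors had a median of -0.19 relative to all genes, or -0.20 for the 9 without BOP1 and PPAN. MRTO4, which precedes the stalk proteins on the large subunit, was at 41.2 and 76.4 CPM (-0.87, -1.09 to -0.69), the lowest of all 36. PPAN, at 17.4 and 4.96 CPM, had a ratio of 1.63 (1.37 to 2.26) but passed only through LNCaP–ENZ168. GNL3 (-0.19, -0.25 to -0.13) and NOP16 (-0.016, -0.15 to 0.12) were also called below. Of the other pathway lists, those for RNA polymerase I had 0 genes past 1.5-fold above and 7 below of 17, the small subunit 7 and 7 of 37, the large subunit 10 and 7 of 41, snoRNP assembly 1 and 6 of 10 and the exosome 2 and 4 of 14, where 26.8% of all tested genes lay above and 28.1% below.

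**Figure D5:**
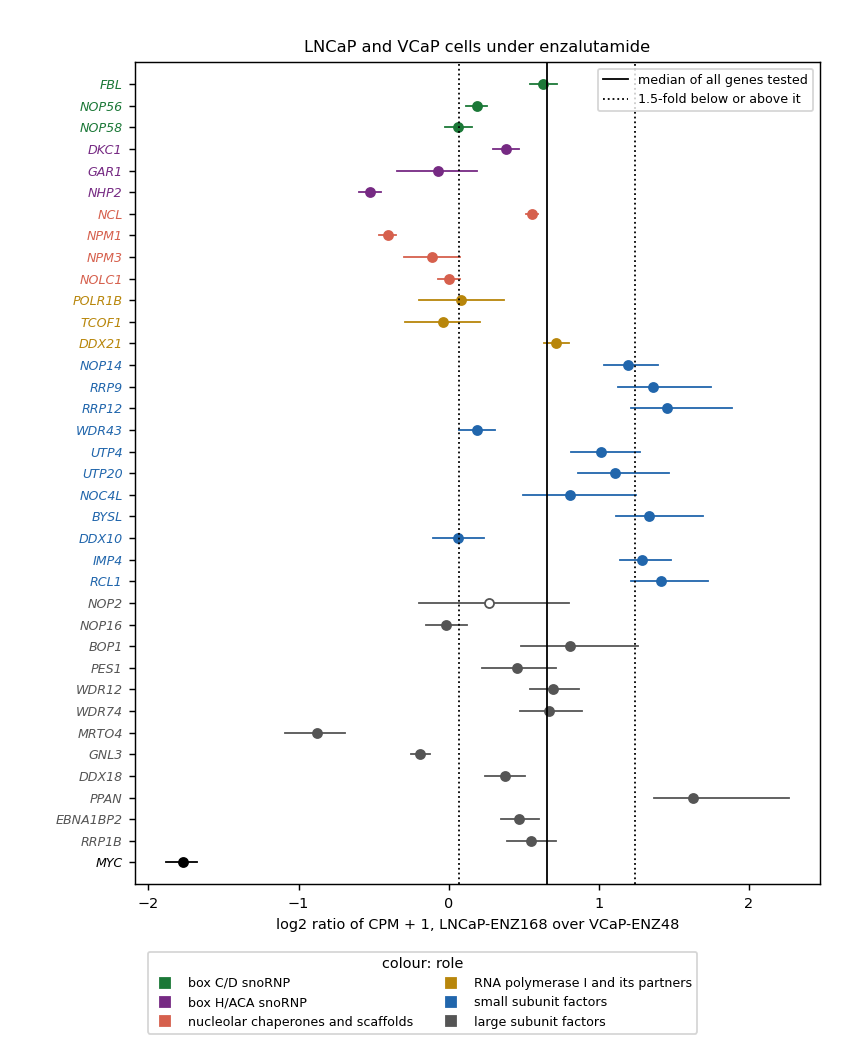
Log2 ratios of CPM + 1, LNCaP–ENZ168 over VCaP–ENZ48, of the 36 nucleolar factors and MYC, coloured by role, with lines for exact conditional 95% intervals. The solid line marks the median of all tested genes (0.65), dotted lines mark 1.5-fold below and above it, and the open point is NOP2, under the minimum. Of the 11 small subunit factors 9 lie right of the solid line, all H/ACA proteins and chaperones lie left of it, and MYC lies farthest left at -1.77.

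Some of the loci hold more than the factor itself. In Gencode, 7 of the 36 genes enclosed 25 snoRNA genes, which are the guides that snoRNPs use: NOP56 with 5, among them SNORD86 and SNORD110, GNL3 with 6, NOP58 with 4, NCL and WDR43 with 3 each, DKC1 with 2 and PPAN with 2. Another counted gene overlapped 9 of the factors on the opposite strand, such as HIGD2A at NOP16 with 282 CPM in VCaP parental, and whether counting used strand is not given in the sources used here, so the values of these 9 are uncertain. On the same strand, PPAN overlapped P2RY11 and PPAN-P2RY11, and UTP4 overlapped SNTB2. The values of PPAN and UTP4, including the low level of PPAN, are uncertain for that reason too. The 44 pseudogenes named after NPM1 held 921 UMIs in VCaP parental, 1198 in VCaP–ENZ48 and 202 in LNCaP–ENZ168, equal to 9.50%, 11.9% and 6.04% of the UMIs of NPM1. The NPM1 count is therefore uncertain to that extent, and pseudogene and gene were both higher in VCaP–ENZ48 than in VCaP parental.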

How the data were processed

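Drop-seq libraries of VCaP parental, VCaP–ENZ48 and LNCaP–ENZ168 were analysed, 1 each. The authors aligned reads to GRCh38 and deposited raw UMI counts per gene and barcode (Drop-seq tools), with 1000 barcodes a library. The members and gene lists were chosen with earlier results of these data known. Cells were kept with 300 or more genes, 500 or more UMIs and a mitochondrial share of up to 25%, and no doublets were marked or removed. Deposited counts were summed over the kept cells, a gene missing from a file was set to 0, and sums were scaled to CPM. Named genes were the 36 factors, MYC and, of each other pathway list, the 2 highest and 2 lowest ratios between the VCaP libraries among genes averaging 10 CPM or more. With 1 library per group no test was made. Levels carry exact Poisson, ratios exact conditional and shares exact Clopper-Pearson 95% intervals. S and G2M genes came from Seurat 5.3.0, TMM factors from edgeR 4.0.16. Ratio steps were tested on simulated data. Gene positions are from Gencode annotation on GRCh38, later than the authors' version. Alternatives covered cell filter, deep barcodes, barcode ending, cell weight, scaling, pseudocount, minimum, fold, cycling cells and thinning. A marker listed for the check of the lines is not reported here. Python 3.11.15 and R 4.3.3 were used.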

Additional observations from a re-analysis of the deposited data

How the results depend on the processing

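No paired analysis was possible because no group has a second library. Between the VCaP libraries the median of the factors stayed below 0 and below that of all genes in every alternative run. It was -0.77 under TMM and -0.92 under median-of-ratios scaling, where 34 of 36 factors lay below 0 and MYC had a ratio of 0.21 and 0.051. Factors past the fold below numbered 2 among barcodes ending in a base, 5 at pseudocount 10, 18 and 3 at a minimum of 1 and 50 CPM, and 21 and 0 at a looser fold and a fold of 2. Past the fold above was 1 with the stricter cell filter, among barcodes ending in a base, at a minimum of 50 CPM and at the looser fold. For LNCaP–ENZ168 over VCaP–ENZ48 the median was -0.057 under TMM, -0.076 under median-of-ratios, 0.21 without mitochondrial and ribosomal protein genes and 0.19 at a minimum of 50 CPM. The ratio of the summed factors, 0.21, became -0.32, -0.34 and -0.046 in the first 3 of these. Relative to all genes the median was -0.034 and -0.37 at a minimum of 1 and 50 CPM. Factors above numbered 1 at pseudocount 10, 2 at 50 CPM and 0 at a fold of 2, and below 5 at pseudocount 10, 1 CPM and 50 CPM and 3 at a fold of 2. The cause of these shifts was not tested. The share of all genes past the fold was not taken in these settings, so these counts cannot be set against it. Of 962 ratios of single genes relative to all genes in the alternatives, 781 stayed within the counting interval and no called gene changed side. Taking off the all-gene median cancels a library scaling factor, so the 74 ratios under TMM and the 74 under median-of-ratios scaling could hardly move. Outside the interval lay 36 ratios among barcodes ending in a base and 30 among the least cycling cells. At a minimum of 1 and 50 CPM, 43 and 32 lay outside it. Barcodes ending in N were 859, 820 and 205 in VCaP parental, VCaP–ENZ48 and LNCaP–ENZ168, so few VCaP cells remain without them. Depth limits factors under 10 CPM most.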
